A study of Caenorhabditis elegans with 2 samples.

Results

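The peaks described here are positions of enrichment in chromatin immunoprecipitated for RBR-2-GFP from Caenorhabditis elegans. They lay on autosomes, just upstream of a single protein-coding gene. They were taken from the optimal list of the study, which the authors made with the IDR (irreproducible discovery rate) procedure. A peak was included when its summit, the position of highest signal, lay upstream of and within 500 bp of the annotated 5′ end of exactly 1 protein-coding gene, inside no annotated gene and over 200 bp from every tRNA, snRNA, snoRNA and rRNA gene. This rule found 631 of the 2746 optimal peaks on autosomes (23.0%), which is 18.3% of the whole list with its other 696 peaks. The 631 summits lay in 628 distinct regions, because 3 regions held a pair of summits each, and they lay upstream of 621 genes.

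The study had 1 group, RBR-2-GFP at the L4 larval stage, with 2 biological replicates. The animals were whole hermaphrodites of strain OP195, collected 56 hours after synchronisation from starved L1 larvae. The strain stably expresses RBR-2 fused C-terminally to GFP and FLAG, and the labels describe it both as a transgenic line and as an insertion targeting rbr-2. The labels name an antibody against GFP in one field and rbr-2 in another. They give no other genotype, stage or treatment, so no conditions were compared. Because whole animals were used, a peak in a few cells and a weaker peak in many cells cannot be told apart.

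RBR-2 belongs to the KDM5 demethylases, enzymes that remove methyl groups from lysine 4 of histone H3, a mark that lies over the starts of active genes. In C. elegans most messenger RNAs are trans-spliced: the original 5′ end of the transcript is replaced by a short leader, and the annotated 5′ end of a gene often marks the splice site rather than the place where RNA polymerase started. The DNA upstream of an annotated 5′ end therefore holds the promoter and, for many genes, a stretch that is transcribed and then removed.

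The following 8 sequences are the summits of the 10 strongest peaks on chromosomes II to V without tasp-1 and iff-2, whose windows run into the gene, so that the letters behind the composition and motif counts given further on can be seen. Each reaches 75 bp to either side of the summit, which is at position 76, and is written on the strand of its gene, 5′ to 3′ towards the gene. Capitals mark the letters of any of 9 short motifs (TATAAA, the repeat GAGAG, the GC-rich letters CCGCC, the E-box CACGTG, the GATA letters TGATAA, the letters TTCGCGC, the letters CTGCGTC, the splice acceptor letters TTTCAG and a run of 8 T) on either strand. The sequences are from RefSeq, assembly WBcel235 (ce11), and coordinates are 1-based.
rpl-3 (chrIII:3867503-3867653, + strand): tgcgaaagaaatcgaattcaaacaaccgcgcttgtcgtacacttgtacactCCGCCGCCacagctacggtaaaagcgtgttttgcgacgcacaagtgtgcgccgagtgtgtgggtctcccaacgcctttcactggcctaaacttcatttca
cdc-48.1 (chrII:10563511-10563661, - strand): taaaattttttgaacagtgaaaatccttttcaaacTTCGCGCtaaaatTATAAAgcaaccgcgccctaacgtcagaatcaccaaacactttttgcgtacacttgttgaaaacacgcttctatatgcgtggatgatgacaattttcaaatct
rpl-35 (chrIII:7854608-7854758, + strand): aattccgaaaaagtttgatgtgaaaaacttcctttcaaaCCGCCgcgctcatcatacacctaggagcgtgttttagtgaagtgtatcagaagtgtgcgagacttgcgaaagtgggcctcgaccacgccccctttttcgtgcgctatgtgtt
his-37 (chrV:9546929-9547079, + strand): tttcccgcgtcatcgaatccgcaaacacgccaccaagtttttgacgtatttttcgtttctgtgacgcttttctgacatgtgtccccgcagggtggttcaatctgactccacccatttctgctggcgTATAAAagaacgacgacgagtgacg
cox-5A (chrIII:12905124-12905274, + strand): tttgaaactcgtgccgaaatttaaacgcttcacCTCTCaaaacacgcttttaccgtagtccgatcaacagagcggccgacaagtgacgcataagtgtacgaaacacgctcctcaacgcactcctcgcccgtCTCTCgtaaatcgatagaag
wip-1 (chrIII:5018241-5018391, + strand): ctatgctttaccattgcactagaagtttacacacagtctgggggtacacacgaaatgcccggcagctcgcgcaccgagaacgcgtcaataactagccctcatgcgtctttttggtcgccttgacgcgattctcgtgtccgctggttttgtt
tos-1 (chrV:9344216-9344366, - strand): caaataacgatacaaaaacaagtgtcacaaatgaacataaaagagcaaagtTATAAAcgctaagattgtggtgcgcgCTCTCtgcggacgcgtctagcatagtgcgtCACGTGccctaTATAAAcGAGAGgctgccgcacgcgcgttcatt
hsp-1 (chrIV:17278502-17278652, + strand): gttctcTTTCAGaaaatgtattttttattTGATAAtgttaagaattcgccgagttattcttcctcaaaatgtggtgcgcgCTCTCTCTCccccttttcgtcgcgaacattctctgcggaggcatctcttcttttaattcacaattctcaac

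Of these windows, that of wip-1 held none of the motifs. CCGCC was marked upstream of rpl-3 and rpl-35, TATAAA upstream of cdc-48.1, his-37 and tos-1, and GAGAG or its complement CTCTC upstream of cox-5A, tos-1 and hsp-1. Over the stretch that lies 60 to 140 bp from the summit towards the gene, most of which is outside these windows, T made up 51.9% upstream of rpl-3, 49.4% upstream of cdc-48.1 and 51.9% upstream of rpl-35. It made up 44.4% upstream of cox-5A, 39.5% upstream of wip-1 and 45.7% upstream of hsp-1. At his-37 (38.3%) and tos-1 (42.0%) the stretch runs partly into the gene. At tasp-1 (33.3%) and iff-2 (40.7%) it lies wholly inside the gene, so these shares do not describe upstream DNA. The mean over all peaks, 40.3%, also includes stretches that reach into genes. Of the stretches named here that lie wholly upstream, only that of wip-1 was below this mean.

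The motif CTGCGTC, whose share in these peaks is given further on, was in none of those 8 windows. The 3 strongest peaks that held it within 75 bp of the summit and lay at least 150 bp from their gene, on chromosomes II to V, are therefore shown as well. These windows run from 75 bp before the summit to 140 bp past it, so that the T-rich stretch is included, and have the summit at position 76.
eelo-2 (chrIV:17249834-17250049, + strand): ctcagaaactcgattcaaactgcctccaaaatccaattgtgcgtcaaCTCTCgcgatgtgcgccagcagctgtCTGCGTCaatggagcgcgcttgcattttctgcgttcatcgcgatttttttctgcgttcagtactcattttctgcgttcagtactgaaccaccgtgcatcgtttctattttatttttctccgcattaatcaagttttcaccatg
sec-61.G (chrV:10897232-10897447, - strand): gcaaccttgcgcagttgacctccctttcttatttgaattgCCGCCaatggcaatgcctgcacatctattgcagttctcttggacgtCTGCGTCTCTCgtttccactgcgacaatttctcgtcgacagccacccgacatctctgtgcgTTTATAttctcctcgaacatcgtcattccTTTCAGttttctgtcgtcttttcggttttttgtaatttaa
fust-1 (chrII:7152119-7152334, + strand): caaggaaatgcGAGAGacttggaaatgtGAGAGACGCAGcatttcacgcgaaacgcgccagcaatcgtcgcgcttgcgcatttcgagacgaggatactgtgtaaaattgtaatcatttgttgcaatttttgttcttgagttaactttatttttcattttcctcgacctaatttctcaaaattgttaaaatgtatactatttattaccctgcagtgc

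In the window of sec-61.G, CTGCGTC overlapped a copy of CTCTC, the complement of GAGAG. In that of fust-1, the complement of CTGCGTC overlapped a copy of GAGAG. Base T made up 42.0% of the stretch 60 to 140 bp past the summit for eelo-2, 49.4% for sec-61.G and 44.4% for fust-1.

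The deposited signal is the authors' peak caller's own measure of peak strength, and it is used here to rank and describe peaks within a list; between replicates it is compared only after division by each replicate's median, or by rank and correlation. Over the 631 peaks it ranged from 65.2 to 1765, with a median of 119 and quartiles of 83.7 and 169.6. A few peaks stood far above the others: the strongest 63 held 29.6% of the summed signal. The strongest 63 were also shorter, with a median length of 288 bp, while 437 of all 631 peaks (69.3%) had the same length of 440 bp.

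The strongest peak lay 276 bp upstream of rpl-3, which encodes a protein of the large ribosomal subunit. Its signal was 1765 in the optimal list, 771 in replicate 1 and 1001 in replicate 2, and it ranked 7 in each of these lists. The peak 58 bp upstream of tasp-1, which encodes a homologue of the protease taspase, had a signal of 1257, with 598 in replicate 1 and 661 in replicate 2. The peak 179 bp upstream of cdc-48.1, the gene of an AAA ATPase that unfolds ubiquitinated proteins, had 1154, with 526 and 629 in replicates 1 and 2. These peaks were high in both replicates.

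Ribosomal protein and histone genes followed. The peak of rpl-35, which encodes another protein of the large subunit, lay 451 bp upstream with a signal of 1069, and with 469.9 in replicate 1 and 596 in replicate 2. The peak of his-37, a histone H4 gene, had a signal of 942, with 425 and 524 in the replicates. Histone H4 genes have near-identical copies, so reads from the coding sequence could be shared between them, although this summit lay outside the gene.

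Genes of mitochondrial respiration and of translation were also among the strongest 10. The peak of cox-5A, for a subunit of cytochrome c oxidase, had a signal of 816, with 366 in replicate 1 and 446 in replicate 2. The peak of iff-2, for a homologue of translation factor eIF5A, had 771, with 359 and 414 in the replicates. The peaks of wip-1 (697), tos-1 (642) and cox-5B (626) completed the 10. Signals in replicates 1 and 2, not scaled, were 329 and 305 at tos-1 and 301 and 324 at cox-5B. The next 10 were at hsp-1 (603, an Hsp70 chaperone), mog-4 (587, a DEAH-box splicing helicase), eelo-2 (578), Y39E4B.6 (557), sec-61.G (550.3, the gamma subunit of the protein translocation channel), Y22D7AL.10 (542), rps-28 (521, a protein of the small ribosomal subunit), pcn-1 (443, the sliding clamp PCNA), vig-1 (439) and ntl-11 (438, a subunit of the CCR4-NOT deadenylase complex). To compare replicates, each was represented by as many of its strongest regions as the optimal list has peaks, called its strong regions here. All 20 peaks were among the strong regions of both.

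**Figure D1:**
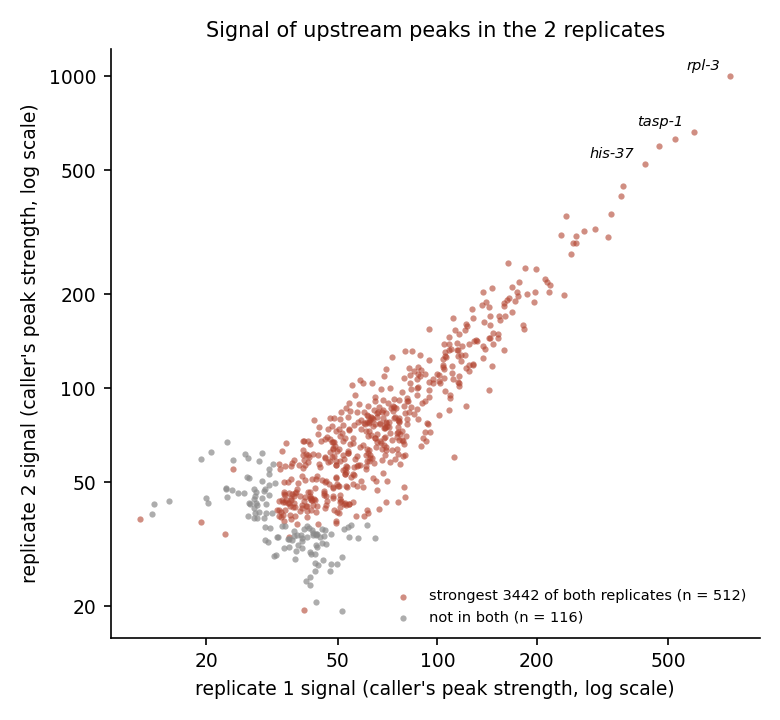
Signal of 628 peaks in replicate 1 (horizontal axis) and replicate 2 (vertical axis), both the caller's peak strength on log axes, 1 point a peak, with 3 of the 5 strongest named. Red points were matched within 200 bp by a strong region of each replicate (512 peaks), and grey points were not; the points lie along 1 diagonal, from rpl-3 at the top right to a scattered group at low signal.

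The replicates gave similar values for most of these peaks. Median signals were 55.6 in replicate 1 and 62.5 in replicate 2. A summit within 200 bp was found in the full list of replicate 1 for 628 peaks and in that of replicate 2 for all 631. Those without one in replicate 1 were at emr-1, acl-6 and the summit 438 bp upstream of T22C1.1, and are named after their values were seen. Among strong regions, 574 of the 631 (91.0%) had a counterpart in replicate 1, 563 (89.2%) in replicate 2 and 512 (81.1%) in both. Peaks that met neither numbered 6. Both-replicate shares were 81.1% here, 82.3% for the 305 autosomal peaks between divergent genes and 73.0% for the 645 autosomal distal intergenic peaks. The optimal list was itself derived from these replicates, so these shares describe the list and are no independent check of it.

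The scatter of replicate signals shows a similar order in both replicates, with more spread at low signal. Across the 628 peaks with a value in both, Pearson's r of the log2 signals was 0.872 and Spearman's rho was 0.827, given as a description because the peaks come from the same 2 libraries and were selected from them. After each replicate was divided by its own median over the peaks, the ratio of replicate 1 to replicate 2 had quartiles of 0.855 and 1.2. It was within 1.5-fold for 538 of 628 peaks (85.7%), above 2 for 8 and below 0.5 for 10.

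The largest ratio was at arp-1, which encodes the actin-related protein of dynactin, with a signal of 51.5 in replicate 1 and 19.3 in replicate 2 (scaled ratio 3.0). Next came F33H1.4 (2.34), cts-1, the citrate synthase gene (2.29), npp-20, a nucleoporin gene (2.20), and sel-10, which encodes an F-box protein (2.09). The smallest was at mboa-2, with 19.2 in replicate 1 and 59.2 in replicate 2 (0.365). It was followed by fbp-1, for fructose-1,6-bisphosphatase (0.368), mec-6 (0.371), aqp-10, an aquaporin gene (0.373), and ufbp-1 (0.384). Of these 10 peaks, sel-10 had an optimal-list signal of 177 and the others lay between 65.6 and 98.5, below the median of 119. For mec-6 and cts-1, a stronger region of the replicate in question lay within 200 bp but was not the nearest, so their ratios depend on which region is matched. The weakest 5 peaks of all were at istr-1 (65.2), fath-1 (65.2), fbp-1 (65.6), lep-2 (66.1) and F21F3.6 (66.1).

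Peaks upstream of a single gene were of middling strength among autosomal peaks. Their median signal of 119 compares with 128 for peaks within 500 bp of a pair of divergent genes and with 102 for distal intergenic peaks. In replicate 1 the medians were 55.6 for single-gene peaks, 62.1 for divergent peaks and 49.2 for distal peaks, and in replicate 2 they were 62.5, 65.2 and 55.6 in the same order. The ratio of medians over distal peaks was 1.17 in the optimal list, 1.13 in replicate 1 and 1.12 in replicate 2. Over divergent peaks it was 0.933, 0.896 and 0.959. Neither order held under every setting: in the list's stronger 50% the ratio over distal peaks was 0.916, and with a window of 250 bp the ratio over divergent peaks was 1.01. The boxes of the 3 classes overlap almost wholly in the plot of signal by class.

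**Figure D2:**
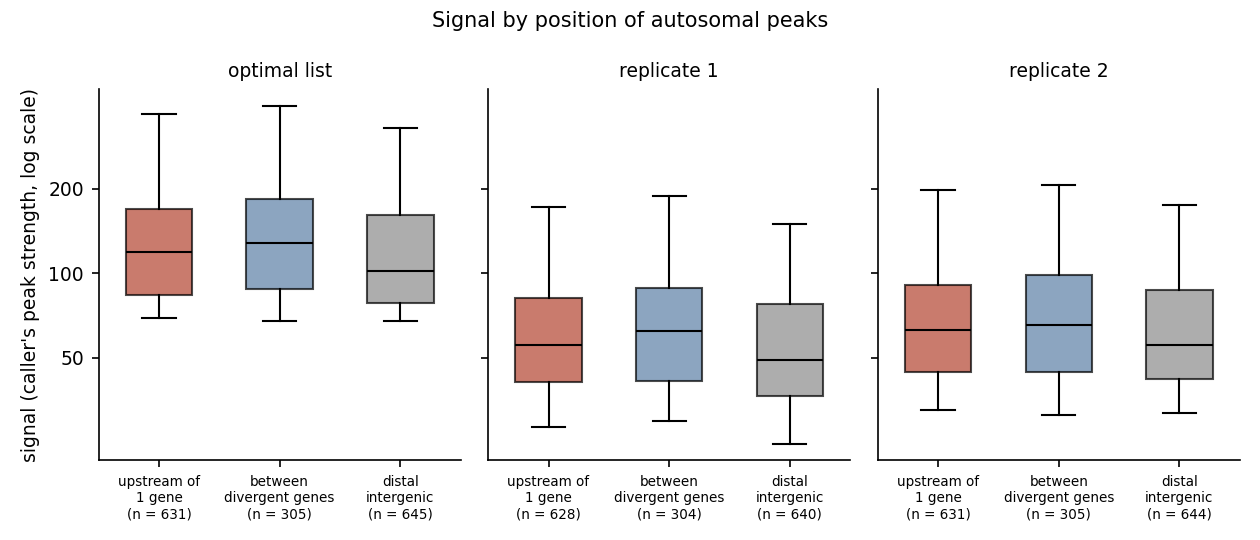
Signal (caller's peak strength, log axis) of autosomal peaks upstream of a single gene, between divergent genes and in distal intergenic DNA, in the optimal list and in each replicate. Lines are medians, boxes quartiles and whiskers the 5th and 95th percentiles over peaks; the single-gene median (119 in the optimal list) lies between those of the divergent (128) and distal (102) peaks in all 3 panels.

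These peaks were dense in the DNA where the rule allows them. Upstream DNA that meets the rule came to 5547 kb, or 6.72% of the 82.6 Mb of autosomes, and it belonged to 14157 of the 17242 autosomal protein-coding genes. It held 114 peaks per Mb, against 27.5 other optimal peaks per Mb in the rest of the autosomes. The strong regions of replicate 1 gave 114 and 27.4 per Mb, and those of replicate 2 gave 109.6 and 27.6. Of the 14157 eligible genes, 621 had a peak (4.39%); the share was 4.34% with the strong regions of replicate 1 and 4.21% with those of replicate 2. Over all autosomal protein-coding genes it was 3.6%.

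Summits gathered between 100 and 300 bp upstream of the annotated 5′ end. The median distance was 194 bp, with quartiles at 119 and 294 bp and a range of 2 to 491 bp. Per Mb of eligible DNA, density was 91.8 within 100 bp, 176 from there to 200 bp, 139 to 300 bp, 91.9 to 400 bp and 60.6 to 500 bp. Pooled regions that overlapped no optimal peak but lay at the same kind of position numbered 1650, with a median signal of 25.5 and a maximum of 65.1. The pooled list includes background, so it is unknown how many of these regions, called weaker regions here, are peaks. The density of these regions was 334, 374, 293, 255 and 197 per Mb over the same steps, a shallower rise from 100 to 200 bp.

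Strength did not follow distance closely. Median signals in the 5 steps were 119, 109, 121, 136 and 125, and Spearman's rho of signal with distance was 0.065 over peaks (0.073 in replicate 1 and 0.045 in replicate 2). At the edge of the window, the 22 peaks beyond 450 bp had a median signal of 97.5. The 25 peaks that would qualify at over 500 and up to 550 bp had 99.0. The peaks closest to a 5′ end were at B0303.4 (2 bp), F47B8.3 and rpn-11 (4 bp each), ztf-3 and Y39B6A.5 (5 bp each). Of these, rpn-11, which encodes the deubiquitinating enzyme of the proteasome lid, had the highest signal (286). The farthest were at ippk-1 (491 bp), Y71H2B.8 (488 bp), dnbp-1 (487 bp), spr-4 (484 bp) and sms-3 (483 bp), with signals of 71.9 to 205.

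**Figure D3:**
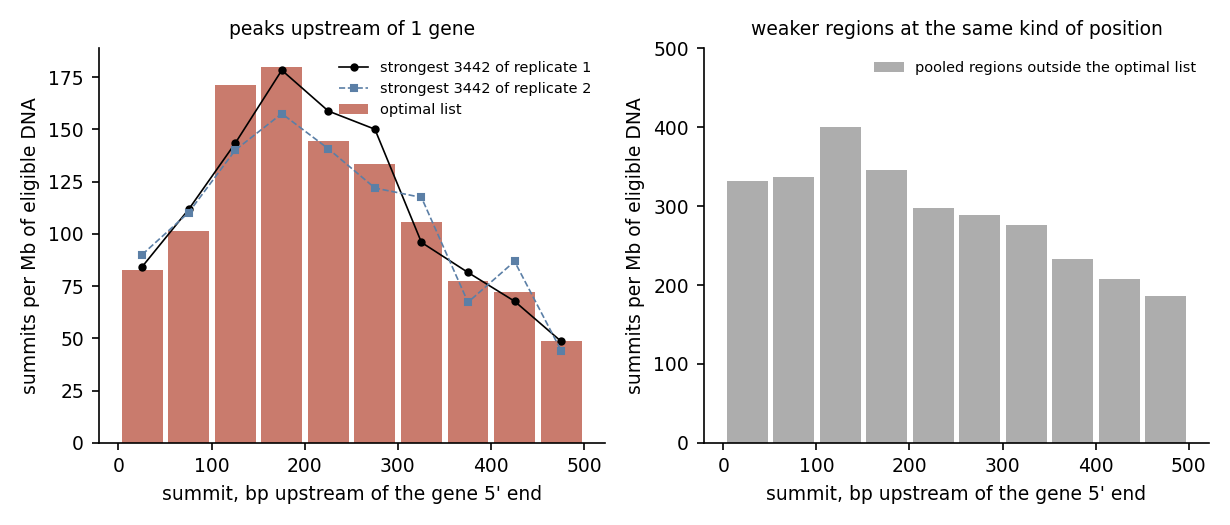
Summits per Mb of eligible DNA in steps of 50 bp upstream of the gene 5′ end, for peaks of the optimal list (bars, left) with the strong regions of each replicate (lines), and for pooled regions outside the optimal list (right). The optimal list and both replicates are highest from 150 to 200 bp (180.1, 178 and 158 per Mb).

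The annotated structure of genes with a peak was set beside that of the other eligible genes, without a test. The start codon was the annotated 5′ end itself, with no 5′ UTR annotated, for 45 of the 621 genes (7.25%), against 25.8% of the 13536 other eligible genes. The start codon lay within 20 bp of the 5′ end for 58.9%, against 58.0%, and the median distance to it was 13 bp in both sets. Median gene length was 2654 bp, against 1999.5 bp, with a median of 7 distinct exons against 6. A gene name, as opposed to a sequence name such as Y39E4B.6, had been given to 72.8%, against 55.4% of the others.

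Where the first annotated start codon lay far from the annotated 5′ end, measured along the DNA with introns included, summits lay nearer to the 5′ end. The 97 peaks at genes with over 100 bp from the 5′ end to the start codon had a median distance of 92 bp. Median distance was 198 bp for the 163 peaks with 21 to 100 bp, 212 bp for the 326 with 1 to 20 bp and 230 bp for the 45 with none. Signal did not follow the same order, with medians of 132, 114, 119.6 and 116.

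The upstream neighbour was in tandem for 344 peaks (54.5%), its 3′ end facing the peak, and divergent but over 500 bp from the summit for 287 (45.5%). By genes, 54.4% of those with a peak had a tandem neighbour, against 61.3% of other eligible genes. Tandem gaps were shorter at genes with a peak, with a median of 558 bp against 802 bp. Density per Mb of eligible DNA fell with the gap: it was 219 for gaps of up to 500 bp, 132 up to 1000 bp, 105 up to 2000 bp, 80.9 up to 4000 bp and 76.1 above. The share of genes with a peak varied less, from 4.67% in the shortest gaps to 5.01% at 1000 to 2000 bp and 3.57% in the longest. For 93 of the 344 tandem peaks (27.0%), the summit lay closer to the 3′ end of the upstream gene than to the 5′ end it was assigned to. A further optimal summit lay inside the gene for 44 of the 621 genes (7.09%), against 3.59% of other eligible genes. Genes with a peak were also longer (median 2654 bp, against 1999.5 bp), and these shares were not adjusted for length.

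Base composition changed sharply at the summits. In the 200 bp around the summit GC content was 42.0% ± 6.70 (SD over 631 peaks), and in flanks 500 to 700 bp away on both sides it was 37.0%, a difference of 5.00 percentage points. GC was higher at the summit than in its flanks for 434 peaks (68.8%). The same difference was 1.01 points for the 1650 weaker regions at the same kind of position, -0.317 for divergent peaks and 11.7 for distal peaks. Windows placed 194 bp upstream of the 10784 eligible genes that had no peak and had eligible DNA at that offset gave -1.73 points. The size depended on the window: it was 10.1 points with 100 bp at the summit and 0.631 with 400 bp. The downstream flank often reaches into the gene, whose coding sequence has a composition of its own.

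The finer profile shows how narrow the GC-rich stretch was. In bins of 20 bp, GC content was highest, at 51.2%, in the bin centred 10 bp past the summit. It was down to 32.6% in the bin centred 110 bp before the summit and 32.5% in that 110 bp past it. Composition was asymmetric with respect to the gene. On the gene's strand T reached 41.1% in the bin centred 110 bp past the summit, where A was 26.4%. Over the whole stretch of 60 to 140 bp past the summit T averaged 40.3% ± 10.2 (SD over peaks) and A 25.4%. The same stretch had 35.5% T and 28.6% A at the weaker regions, and 36.2% T and 29.7% A at eligible genes without a peak. T outnumbered A there in 82.1% of peaks, against 66.5% of weaker regions and 65.5% of eligible genes without a peak. Among the 423 peaks over 140 bp from the 5′ end, where this stretch lies wholly outside the gene, the share was 87.2%. At the same distance on the far side of the summit T and A were nearly equal, at 33.4% and 32.4%.

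**Figure D4:**
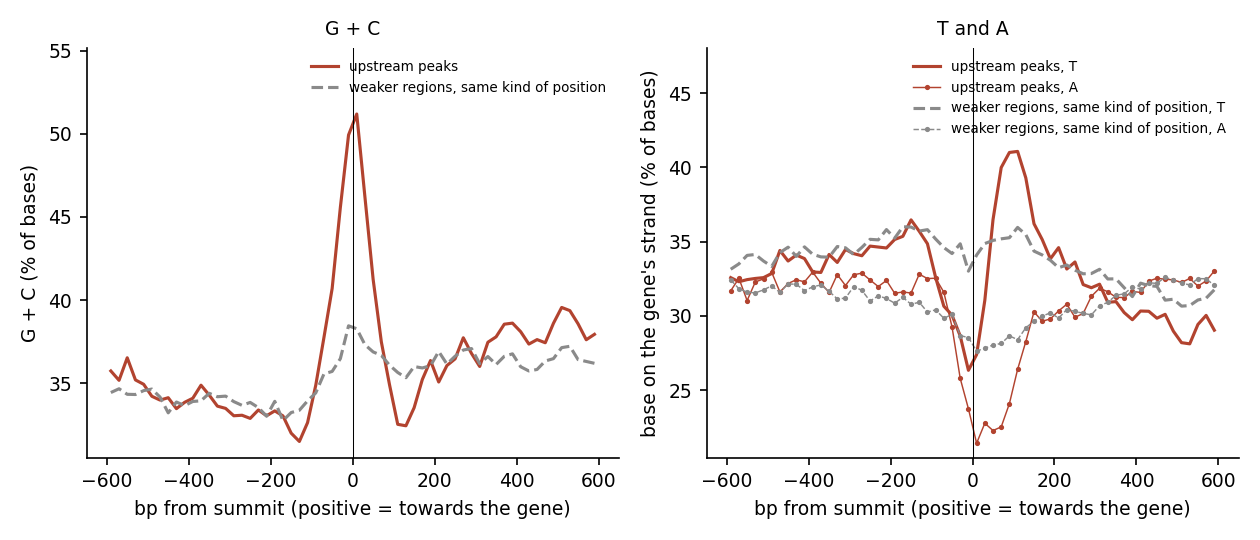
Base composition in bins of 20 bp around the summit, oriented so that positive distances lead towards the gene, for 631 peaks (red) and 1650 weaker pooled regions at the same kind of position (grey, dashed). The left panel gives G + C and the right panel T and A on the gene's strand, as a percent of bases; the peaks have 51.2% G + C just past the summit and 41.1% T at 110 bp past it.

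Short motifs were counted within 100 bp of each summit, on both strands, with each window counted at most once per motif. A match gives the presence of letters and not a binding site. The GC-rich motifs had larger shares here than upstream of genes in general, a description with no test. CTGCGTC was in 137 of 631 windows (21.7%), against 8.48% of weaker regions at the same kind of position, 9.18% of divergent peaks, 28.2% of distal peaks, and 3.22% of the windows of equal length 194 bp upstream of all 17242 autosomal genes. GAGAG was in 334 windows (52.9%), against 39.9% of weaker regions, 40.7% of divergent peaks, 76.4% of distal peaks and 26.4% upstream of all genes. CCGCC was in 32.2%, against 22.2%, 31.5%, 34.4% and 14.2% of the same sets. TTCGCGC was in 7.29%, against 2.91%, 6.56%, 3.41% and 1.59%. Among peaks that met the rule in each replicate's own strong regions, CTGCGTC was in 20.1% for replicate 1 and 21.4% for replicate 2.

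Other motifs were less frequent or differed little. TATAAA was in 14.1% of windows, against 26.2% of weaker regions, 17.4% of divergent peaks, 7.75% of distal peaks and 25.2% upstream of all genes. TGATAA, the letters recognised by GATA factors, was in 10.6%, against 17.7%, 8.85%, 6.82% and 21.3% of the same sets. TTTCAG, the letters of the worm splice acceptor, was in 22.3%, against 27.0%, 29.2%, 16.3% and 31.3%, and a run of 8 T in 14.1%, against 22.7%, 21.6%, 12.4% and 24.4%. Low shares of these 4 motifs were thus also found in distal peaks. CACGTG, the E-box, was in 5.23%, against 4.12%, 1.97%, 6.05% and 3.45%. At least 1 of the 4 GC-rich or GAGAG motifs above was in 460 windows (72.9%), and 171 had none.

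GC content moved with these counts, so they were repeated in windows of 38 to 46% GC only, a range chosen after seeing the data. CTGCGTC was then in 22.5% of 289 windows of these peaks, against 12.8% of 508 weaker regions and 6.95% of 2001 windows of eligible genes without a peak. TTCGCGC was in 7.96%, against 3.15% and 2.30%. GAGAG was in 52.2%, against 54.5% and 38.9%, so within this range it was not more frequent than in the weaker regions. CCGCC was in 30.8%, against 31.3% and 25.5%, so it too was not more frequent than in the weaker regions. In this range CTGCGTC was in 8.82% of 136 divergent peaks and 23.9% of 238 distal peaks, so its share in distal peaks was similar to that here. For the same 2 classes GAGAG was in 45.6% and 75.6%, CCGCC in 39.0% and 22.7%, and TTCGCGC in 3.68% and 2.10%. TATAAA was in 11.4% of these peaks, against 14.8% of weaker regions and 14.6% of eligible genes without a peak. TGATAA was in 8.30%, against 14.8% and 16.8%. The order seen over all windows also did not hold for the remaining 3 motifs. The run of 8 T was in 15.9%, against 14.4% and 13.6%, TTTCAG in 22.8%, against 21.5% and 23.0%, and CACGTG in 5.19%, against 6.5% and 6.0%.

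GAGAG lay more often on 1 strand. It was on the strand opposite to the gene, read as CTCTC on the gene's strand, in 38.8% of windows, and on the gene's own strand in 21.9%. Weaker regions had 30.7% and 14.8%, windows upstream of all autosomal genes 18.1% and 10.4%, and those of eligible genes without a peak 17.7% and 8.86%, so the same imbalance was present upstream of genes in general. Distal peaks, whose strand is arbitrary, had 50.1% and 48.7%. Matches of different motifs overlapped in 51 windows, of which 37 were CTGCGTC with GAGAG, as in the sec-61.G and fust-1 sequences. Peaks with TATAAA were weaker, with a median signal of 99.0 for the 89 with it and 125 for the rest; the medians were 48.4 and 58.3 in replicate 1 and 53.0 and 63.9 in replicate 2. Peaks with TGATAA had a median of 100.8, against 120.8 without it, while those with TTCGCGC had 140.4 against 118 and those with CACGTG 141.8 against 118. Peaks with CTGCGTC had nearly the same median signal as those without it (117.7 and 119.9). Signal also moved with GC content: the stronger peaks, at or above the median signal, had 43.3% GC at the summit and the weaker ones 40.6%, with a Spearman's rho of 0.262 across peaks, and its part in these differences was not tested.

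The share of eligible genes with a peak differed between autosomes. It was 6.72% on chromosome I, 4.63% on II, 6.0% on III, 4.01% on IV and 2.47% on V, against 4.39% on all. The strong regions of replicate 1 gave 6.41%, 4.53%, 6.0%, 4.31% and 2.38%, and those of replicate 2 gave 6.32%, 4.53%, 5.75%, 3.94% and 2.33%. Chromosome V was lowest in all 3 lists. With each chromosome cut into equal stretches at left, middle and right, 5.12% of eligible genes in the middle stretches had a peak, against 4.09% in the left and 3.80% in the right stretches. This order was not that of every chromosome: on II the share was highest at the right (5.99%, against 5.75% in the middle), on IV at the left (5.06%, against 4.22% in the middle), and on III the 3 stretches had 5.82% to 6.11%. Median signal followed another order, at 110.0 on I, 125 on II, 118 on III, 138 on IV and 114 on V.

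Of 23 gene lists, 17 had a larger share of eligible genes with a peak than the 4.39% of all eligible genes, 1 had a smaller share above 0 and 5 had none. The lists held 115 of the 621 genes, so 506 belonged to no list. Exact Clopper-Pearson 95% intervals, which cover counting error only, lay wholly above 4.39% for 10 lists and wholly below it for 4, and included it for the other lists, among them mitochondrial ribosomal proteins and tRNA synthetases. For nuclear hormone receptors the upper limit, 4.37%, was only just below 4.39%. The intervals treat genes as independent and were not adjusted for the number of lists. The lists were also chosen with earlier results of these data known. Counts and intervals are therefore descriptions, and no conclusion is drawn from how many intervals exclude 4.39%.

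Genes of protein synthesis had some of the larger shares. Of 54 eligible cytosolic ribosomal protein genes, 20 had a peak (37.0%), also 20 with each replicate's strong regions. Their median signal was 169, against 119 over all these peaks, and their median distance 285 bp, against 194 bp. After rpl-3, rpl-35 and rps-28, the strongest was rps-24 with a signal of 349.8, and with 182 in replicate 1 and 159 in replicate 2. Translation factors had a peak at 10 of 25 genes (40%, with the same count in each replicate), with a median signal of 108. Besides iff-2 they included eif-3.C (396), eif-3.B (218) and eif-3.E (132), which encode subunits of initiation factor eIF3. By contrast, 3 of 47 genes for mitochondrial ribosomal proteins (6.38%) and 2 of 22 for tRNA synthetases (9.09%, mars-1 and kars-1) had a peak.

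Genes of protein turnover and folding followed. Ubiquitin conjugation genes had a peak at 9 of 21 (42.9%, 9 with each replicate), with signals of 262 at ubc-25 and 252 at ubc-3, both ubiquitin-conjugating enzymes. The proteasome had 3 of 20 (15%; 4 with each replicate), namely rpn-11, rpt-1 (98.0) and rpn-13 (88.6). Chaperones had 5 of 43 (11.6%; 6 with replicate 1 and 4 with replicate 2) with a median signal of 361, among them hsp-1, the Hsp70 cochaperone gene bag-1 (425) and dnj-9 (361).

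Nuclear functions were also represented. Nuclear pore and transport genes had a peak at 9 of 27 (33.3%; 9 with replicate 1 and 8 with replicate 2), led by npp-8 (256), imb-3 (222) and ima-2 (212), the last 2 of which encode importins. Spliceosome and SR protein genes had 10 of 45 (22.2%; 9 with each replicate), led by mog-4, the SR protein gene rsp-6 (239) and prp-8 (237). Transcription machinery had 7 of 42 (16.7%), led by cdk-7 (368), the kinase of TFIIH, and rpb-11 (301), a subunit of RNA polymerase II. Cell cycle and replication genes had 7 of 50 (14%; 9 with replicate 1 and 6 with replicate 2), including cdc-48.1 and pcn-1. Histones had 2 of 14, his-37 and his-72, an H3.3 gene whose signal was 84.3.

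Complexes that act on chromatin had few eligible genes. Of 13 genes of DREAM, a repressor complex, and the synMuv B group, 3 had a peak in all 3 lists: lin-9 (355), efl-1 (205) and lin-36 (128). Of 9 genes for enzymes that add or remove H3K4 methylation and their subunits, 2 had a peak. They were set-2, the SET1 methyltransferase gene, with a signal of 80.2 and with 44.8 in replicate 1 and 35.4 in replicate 2, and dpy-30, a subunit gene, with 80.0 and with 36.8 and 42.85. Both were below the median of 119, and the count was 2 with replicate 1 and 1 with replicate 2. The gene rbr-2 had no peak that met the rule, which leaves out peaks at other positions, and its eligible upstream DNA is not described here.

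Among genes of metabolism and membrane traffic, the respiratory chain and ATP synthase had 9 of 39 (23.1%; 7 with replicate 1 and 9 with replicate 2), including cyc-1 (305), the cytochrome c1 gene. Vesicle sorting and the vacuolar ATPase had 8 of 52 (15.4%), led by vps-60 (329.9), and the early secretory pathway 3 of 24 (12.5%), namely sec-61.G, sar-1 (211) and trap-1 (142).

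Large gene families with restricted expression had few peaks or none. Nuclear hormone receptors had a peak at 4 of 231 genes (1.73%; 4 with replicate 1 and 2 with replicate 2), nhr-49 (199), nhr-105 (76.0), nhr-119 (72.3) and nhr-58 (67.4). A peak was found at 0 of 1197 chemoreceptor genes, which allows a share of up to 0.251%, 0 of 108 collagen genes (up to 2.78%) and 0 of 96 neuropeptide genes (up to 3.13%, with 1 in replicate 2). There were also 0 of 39 ceh homeobox genes (up to 7.69%) and 0 of 18 major sperm protein genes (up to 16.7%), whose limits are above the 4.39% of all eligible genes, so these counts do not tell them from all genes. These limits are 3 counts of the total, a different measure from the Clopper-Pearson intervals above, and cover counting error only. The lists were chosen with earlier results known, so no conclusion is drawn from a limit below 4.39% either. A region of the pooled list, of any strength and with background included, lay in the same position at 15.2% of all eligible genes. It did so at 23 chemoreceptor genes (1.92%), 12 collagen genes (11.1%), 11 neuropeptide genes (11.5%), 36 nuclear hormone receptor genes (15.6%), 2 ceh genes (5.13%) and 0 major sperm protein genes.

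**Figure D5:**
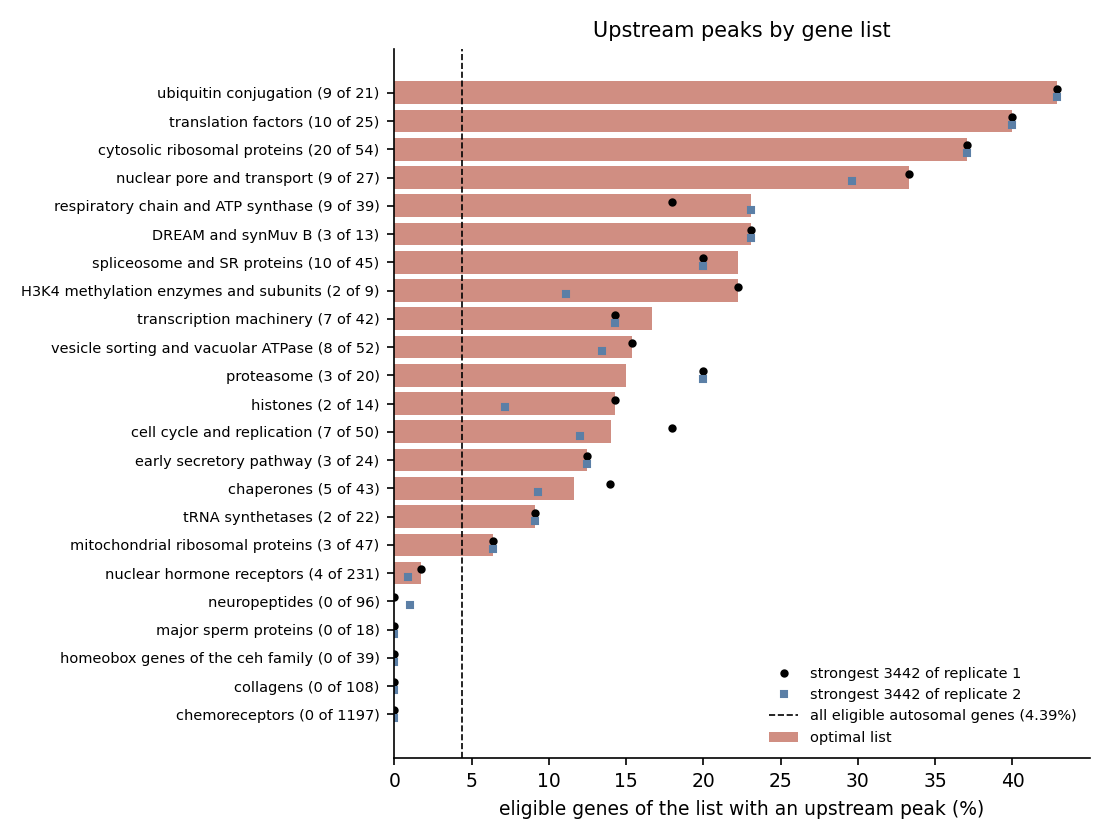
Share of the eligible autosomal genes of each list that had a peak upstream (bars, optimal list; circles and squares, the strong regions of replicates 1 and 2), with the count for the optimal list after each name. The dashed line is the 4.39% of all eligible genes; 17 lists extend past it, and chemoreceptors, collagens, ceh homeobox genes, neuropeptides and major sperm proteins are at 0 in the optimal list.

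A pair of these peaks lay upstream of each of 10 genes, always in overlapping regions with summits 200 to 283 bp apart, so their values are not independent of each other. The highest summed signal was at hlh-11, a basic helix-loop-helix factor gene, with 415 at 302 bp and 147 at 98 bp in the same region. Replicate 1 gave 164 and 66.6 for these summits, and replicate 2 gave 252 and 87.3. At pcn-1 the signals were 443 at 279 bp and 94.5 at 479 bp, and at lin-66, a gene of the heterochronic pathway, 379.7 at 403 bp and 70.2 at 202 bp. R186.8 (245 and 146) and T22C1.1 (166 and 161) followed. For vps-39, which encodes a subunit of the HOPS tethering complex, both summits matched the same region of replicate 1, with a signal of 60.8.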

How the data were processed

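Chromatin of 2 biological replicates was sheared by sonication, immunoprecipitated and sequenced, per the labels. The authors deposited peak lists in ce11 for each replicate (26742 and 28724 regions) and for the pooled replicates (30000), all with background included. They also deposited an optimal list (3442), derived from the others per the text deposited with the files. The aligner, the peak caller and the IDR threshold are not given in the sources used here, and the control reads were not analysed here. The deposited signal is the caller's peak strength; the deposited −log10 q-value has a ceiling and was used for no ranking. No list gives read counts, so depth is unknown.

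Summits were placed against the Ensembl release 115 annotation and the RefSeq sequence of the same assembly with pandas 2.3.3 and numpy 2.4.6. Each replicate was represented by its strongest 3442 regions, and summits within 200 bp counted as shared. Eligible genes had at least 1 base upstream where a summit would meet the rule. The placement rule, matching, motif search and GC content were tested on simulated data and recovered 1000 of 1000 planted cases in each of 6 checks. Planted shifts of up to 200 bp lay within the matching distance, so that check could not fail by design. The motif check did not look for false matches. These are checks of the code and not of the peaks. No test between groups was possible, and no p-value is given: peaks and genes are not replicates.

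Genes were named as the 20 strongest and 5 weakest peaks, up to 4 per gene list, the 5 highest and lowest replicate ratios, the 5 genes with a pair of peaks and the highest sum, and the 5 nearest to and farthest from a 5′ end. The members and lists were chosen with earlier results of these data known; the sequences with CTGCGTC, the exceptions named in the text, the eligible-gene windows, the tandem-only GC difference and the GC range for motifs were chosen after their values were seen. Alternatives were the stronger 50% of the list, windows of 250 and 1000 bp, all transcript 5′ ends, margins of 0 and 500 bp around short RNA genes, each replicate alone, summit windows of 100 and 400 bp for GC and 50 bp to either side for motifs, and shared distances of 100 and 400 bp.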

Additional observations from a re-analysis of the deposited data

How the results depend on the processing

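The number of peaks that met the rule was 631 as reported, 337 in the stronger 50% of the list, and stayed within 1.5 times of 631 under the other settings (608 to 633 with 1 replicate). The ratio of medians over distal peaks reversed to 0.916 in the stronger 50%. It was 1.11 with a window of 250 bp, 1.10 with 1000 bp, 1.13 with no margin and 1.11 to 1.14 with 1 replicate. The ratio over divergent peaks reversed to 1.01 with a window of 250 bp; it was 0.948 in the stronger 50%, 0.844 with 1000 bp and 0.878 to 0.888 with 1 replicate. The cause was not tested. The median distance was 209 bp in the stronger 50%, 195.5 bp with no margin and 197 to 198 bp with 1 replicate. It was 142 bp with a window of 250 bp and 248 bp with 1000 bp, as the window itself sets it. The GC difference was 5.84 points in the stronger 50%, 3.20 and 6.29 with windows of 250 and 1000 bp, 10.1 and 0.631 with 100 and 400 bp at the summit, 3.61 with tandem neighbours only, and 4.66 to 4.93 with 1 replicate. The share of all autosomal genes was 1.93% in the stronger 50%, 3.14% with 250 bp, 3.70% with no margin and 3.46% to 3.57% with 1 replicate. The share of peaks strong in both replicates was 79.4% within 100 bp and 99.7% in the stronger 50%. Of 36 alternative motif shares, 22 moved by more than the SD of the 2 replicates, among them all 9 with 50 bp to either side of the summit. A shorter window cannot raise a share, and the shares with 1 replicate were set against their own SD. This count is therefore no measure of how robust the motif shares are.

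Depth is unknown, so the precision of a signal cannot be given, and with 2 replicates of 1 group no spread between conditions exists. Distances run to annotated 5′ ends, not to measured starts of transcription. A peak in these lists is a position of enrichment in whole animals.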
